A study of Mus musculus with 8 samples.

Results

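Integrins are the receptors through which cells hold on to matrix and to each other. The Adam genes encode membrane-bound relatives of snake venom metalloproteinases, and the Adamts genes encode secreted ones that cut matrix proteins. The peaks of Ezh2, H3K27me3 and Runx1 at these 3 gene families were described in EML_C1, a mouse haematopoietic progenitor line grown in stem cell factor. Members were the protein-coding genes whose symbols begin with Itga or Itgb, or with Adam or Adamts followed directly by a digit, leaving out Itga2b, Itgb3 and the Itgb1bp genes. The rule found 80 of 21887 protein-coding genes, of which 27 were integrin, 34 Adam and 19 Adamts genes. The integrin group held 2 genes that share only the prefix, the centromere protein gene Itgb3bp and the integrin beta-like gene Itgbl1.

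All groups were the same cells, labelled as of strain C57BL/6, with no treatment and no altered gene named in the labels. They differed in the antibody, with 2 replicates each for Ezh2, H3K27me3 and Runx1, and in fixation, which was DSG followed by formaldehyde for Ezh2 and Runx1 and formaldehyde alone for H3K27me3. EML_C1 is an immortal line that stands in for progenitors, and the peak lists hold no RNA level against which the label could be checked. The labels do not say that replicates were separate cultures, so the spread between them may be technical. The lists held between 64059 and 220455 peaks, and the read depth is not given in the sources used here. A gene was called for an antibody when the same window of 1 kb either side of a gene end held a peak of both replicates. Fold enrichment is the height of a peak above its background, as the authors' peak caller wrote it. Because H3K27me3 came as broad peaks against another input, its folds are not comparable with those of Ezh2 and Runx1.

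Ezh2 is the catalytic subunit of Polycomb repressive complex 2, which places H3K27me3 on genes that a cell keeps silent. Runx1 is a transcription factor that blood progenitors need and that binds many genes of blood cells. An integrin is a pair of 1 alpha and 1 beta subunit, and the pair decides the ligand. Pairs with the subunits Itgb2, Itgb7 and Itga4 carry leukocytes to their targets, whereas pairs that bind laminin or collagen anchor epithelia, muscle and mesenchyme. Most Adam proteins either shed the outer part of other membrane proteins or, in testis, serve sperm and egg. Adamts proteins trim aggrecan, procollagen, von Willebrand factor and other components of the matrix.

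The promoters of 3 members with a Runx1 peak of both replicates over them are shown first, because each holds the letters that RUNX proteins prefer. The letters searched were TGTGGT and TGCGGT on both strands, which differ only in the third letter and so never match the same strand at the same place. Capitals mark each match, so ACCACA is a match on the other strand. Each run covers 250 bases before to 50 bases after a RefSeq start on GRCm38.p6. The Itga4 promoter lies at chr2:79255176-79255475 on the plus strand, that of Itgax at chr7:128129300-128129599 on the plus strand and that of Adam15 at chr3:89349979-89350278 on the minus strand.
Itga4: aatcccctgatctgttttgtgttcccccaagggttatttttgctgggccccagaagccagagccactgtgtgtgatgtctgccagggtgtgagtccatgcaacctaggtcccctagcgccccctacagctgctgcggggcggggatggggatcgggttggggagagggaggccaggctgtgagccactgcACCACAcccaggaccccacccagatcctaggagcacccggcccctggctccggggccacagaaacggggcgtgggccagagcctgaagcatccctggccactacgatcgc
Itgax: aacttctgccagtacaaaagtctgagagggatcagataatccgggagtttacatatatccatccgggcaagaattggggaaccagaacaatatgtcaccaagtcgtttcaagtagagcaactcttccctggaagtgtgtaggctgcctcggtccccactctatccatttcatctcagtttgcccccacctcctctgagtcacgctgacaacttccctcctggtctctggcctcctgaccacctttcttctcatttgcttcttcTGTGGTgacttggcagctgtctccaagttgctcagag
Adam15: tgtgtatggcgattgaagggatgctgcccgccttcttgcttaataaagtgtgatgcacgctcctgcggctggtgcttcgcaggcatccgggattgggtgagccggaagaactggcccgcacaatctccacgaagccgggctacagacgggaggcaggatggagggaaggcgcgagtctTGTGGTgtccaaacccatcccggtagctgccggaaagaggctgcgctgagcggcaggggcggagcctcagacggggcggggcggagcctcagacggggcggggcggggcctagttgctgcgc
The nearest match lay 19 and 49 bp from the Runx1 summits of replicates 1 and 2 at Itgax, 46 and 36 bp at Adam15 and 63 and 111 bp at Itga4.

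RefSeq promoters were on hand for 48 of the 80 members, 52 promoters in all. Of these, 13 lay under a Runx1 peak of both replicates and 4 of the 13 held a match, the fourth being Itgb3bp. Among the other 39 promoters 8 held a match. Over all 21263 promoters of protein-coding genes the share with a match was 21.6%, and it was 23% where Runx1 had a peak of both replicates. A match is only a run of letters, and Itgb1, Adam10 and Adam17 had Runx1 over their promoters with none in this window.

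The 3 families differed in how often they were called, as the plot of shares by family shows. At gene ends Ezh2 was called at 10 of 27 integrin genes, 2 of 34 Adam genes and 9 of 19 Adamts genes, beside 18.4% of all protein-coding genes. H3K27me3 was called at 11 integrin, 16 Adam and 13 Adamts genes, beside 30.6% of all. Runx1 was called at 15 integrin, 6 Adam and 5 Adamts genes, beside 45.3% of all. The integrin genes thus had Runx1 at the largest share of their number, 55.6%, the Adamts genes had the mark at the largest share, 68.4%, and the Adam genes had Ezh2 at the smallest, 5.88%. The order of integrin and Adamts genes for Ezh2, 37% against 47.4%, was not stable. At starts alone it was 40% against 30%, without replicate 1 48.1% against 47.4%, and with windows of 500 bp 37% against 36.8%. Ezh2 depended on asking for both replicates: without replicate 2 it was at 36 members, 11 of them Adam genes, and without replicate 1 at 28, 6 of them Adam genes. A call did not ask that the peaks of the replicates overlap each other. With overlapping peaks required Ezh2 was at 20 members, H3K27me3 at 41 and Runx1 at 26, beside 16.8%, 31.8% and 45.3% of all genes, and the Ezh2 calls of Itga10 and Adamts13 and the Runx1 call of Itga2 were lost. In 8 of the 87 calls the highest peaks of both lists, from which the folds are given, did not overlap. These were Ezh2 at Itga1, Itga10, Adam33 and Adamts13, H3K27me3 at Itgb6, Adam6b and Adamts5, and Runx1 at Itga2.

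End calls also vary with gene length. Runx1 was at an end of 6 of 12 integrin genes of 10 to 50 kb, 6 of 8 of 50 to 100 kb and 3 of 7 of 100 kb or more, beside 54.2%, 53.9% and 38% of all genes of those lengths. So the integrin genes lay near all genes of their length except in the middle class. H3K27me3 was at an end of 7 of 10 Adamts and 6 of 7 integrin genes of 100 kb or more, beside 44.7%, and Ezh2 at 4 of 10 and 4 of 7, beside 25.9%. These are counts of genes, which are not replicates, and no test was run between families.

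**Figure D1:**
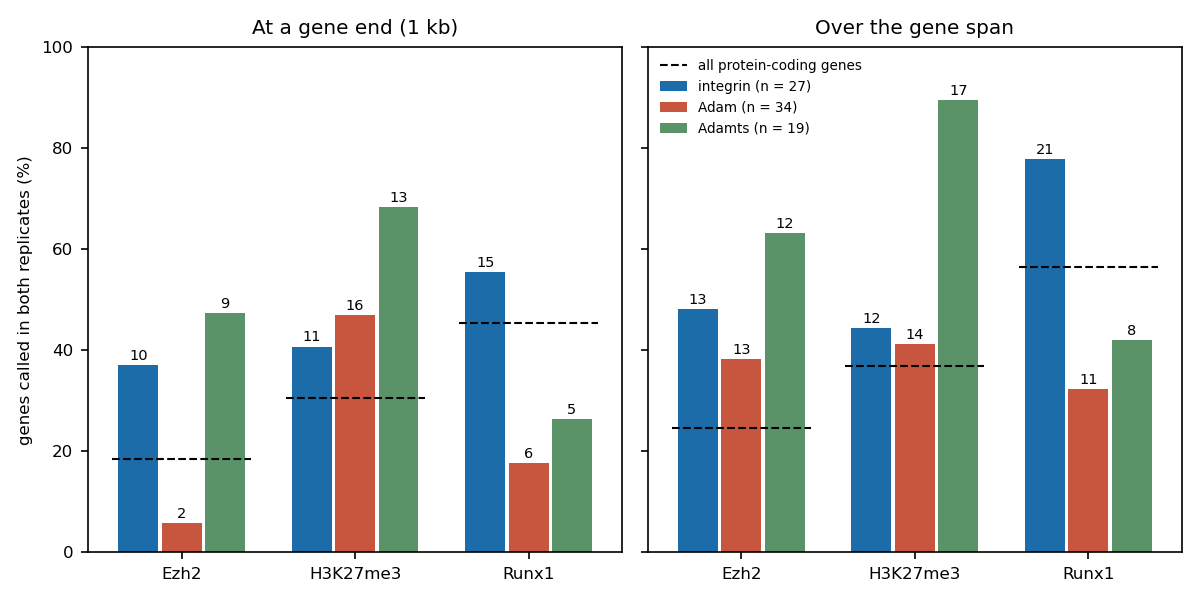
Share of the genes of each family called for each antibody in both replicates, within 1 kb of a gene end on the left and over the whole gene span on the right, in percent. Numbers above the bars are genes, and the dashed lines give the share among all 21887 protein-coding genes, such as 45.3% for Runx1 at gene ends, which the integrin bar exceeds and the Adam and Adamts bars do not reach, without regard to gene length.

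Combined over antibodies, the members fell into a few patterns at their ends. H3K27me3 alone was found at 22 members, beside 12.8% of all genes, and Runx1 alone at 16, beside 38.6%. Ezh2 with H3K27me3 was found at 16, beside 16.3%, and at 12 of them without Runx1. All 3 antibodies were called at 4 members, Itgb5, Adamts7, Adamts9 and Adamts13, beside 3.76% of all genes. No antibody was called at 19 members, beside 28.7%. Ezh2 with Runx1 but without the mark was called at 4 members, namely Itga1, Itga2, Itga5 and Adamts4. Among all genes Ezh2 and Runx1 were called together at 5.23%, and with the mark as well at 3.76%. Of the 21 members with Ezh2, 16 also had the mark, or 76.2%, each time in the same window, where the share among all 4034 genes with Ezh2 was 88.6%. Runx1 and the mark were both called at 6 members, beside 5.2% of all genes, but in the same window at only 4. Adamts13 and Itga11 had Runx1 at the far end and the mark at the start. Runx1 and Ezh2 were both called at 8 members, beside 5.23%, and in the same window at 7. Among all genes the same window held both in 779 of 1138 and 973 of 1145 cases. Of the 40 members with the mark, 16 had Ezh2, or 40.0%, beside 53.4% among all genes with the mark. By family, Ezh2 was at 2 of 16 marked Adam genes, 8 of 13 marked Adamts genes and 6 of 11 marked integrin genes.

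For 48 members the RefSeq promoter table gives the direction of the gene, so the start can be told from the far end. A start here is the edge of the annotated span, and the RefSeq promoter can lie inside it. Runx1 was called at 18 of these, at the start of 16, or 33.3% of the 48, beside 43.3% of all genes of known direction. Ezh2 was called at 14, at the start of 12, or 25%, beside 14.3%. H3K27me3 was called at 21, at the start of 17, or 35.4%, beside 25.1%, and at both ends of 9. Over all 17492 genes of known direction Runx1 lay at the far end alone in 6.16% of calls, Ezh2 in 19.6% and H3K27me3 in 15.3%. The members with Runx1 at the far end alone were Adamts13 and Itga11.

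Of the 10 integrin subunits listed for leukocytes, 8 had neither Ezh2 nor the mark at their ends. Of these, 6 had Runx1 alone and 2 no antibody, where 38.6% and 28.7% of all genes had these patterns. Runx1 was called at an end of 6, beside 45.3% of all genes and 9 of the 17 other integrin genes. It was found over the span of all 10, beside 56.5% of all genes. These 10 genes span 17.4 to 294 kb. Among all genes of 10 to 50 kb, 50 to 100 kb and 100 kb or more the share was 66%, 75.2% and 73.6%. Itgb2 (chromosome 10, 77530329 to 77565708), the beta subunit shared by the CD11 integrins, had the highest end peak, with Runx1 folds of 16.2 in replicate 1 and 17.0 in replicate 2 (16.6 ± 0.568, SD, n = 2). Its summits lay 821 and 824 bp from the end. With windows of 500 bp its mean fold was 3.44, below those of Itgal, Itga4 and Itgax and just below that of Itgam (3.51). The replicates lay close together, and 5 Runx1 regions of both replicates lay over its span.

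Itgal, the alpha subunit of LFA-1, had Runx1 folds of 6.37 and 4.16 (5.26 ± 1.56). Itgb7, which pairs with Itga4 in gut homing, had 5.36 and 3.97 at a start whose peak is shared with its neighbour Rarg. Its RefSeq promoter, at 102231886 to 102232185, lies inside the annotated span and had no Runx1 peak of both replicates. Itga4 itself, the alpha subunit of VLA-4 and the first promoter printed above, had 4.27 and 4.13 (4.20 ± 0.100). These 3 values overlap within their replicates, so their order is not resolved.

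The CD11 genes Itgam, Itgax and Itgad lie side by side on chromosome 7 between 128062640 and 128205504. Itgam, the myeloid subunit CD11b, had Runx1 folds of 3.26 and 3.75 at its start, and Itgax, the subunit CD11c of dendritic cells, had 2.83 and 4.87. Itgad was not called at an end but held 4 Runx1 regions inside its span, the strongest with folds of 20.8 and 21.3, although the gene Cox6a2 overlaps it. Itgae, the CD103 subunit of mucosal T cells, likewise had no call at an end and 4 regions inside, the strongest with 8.67 and 6.59, and here the gene Haspin overlaps. H3K27me3 had 1 region of both replicates over Itgad and none over Itgam, Itgax, Itgal, Itgae, Itgb2, Itgb7 or Itga4. Ezh2 had none over any of these 8 genes.

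The exceptions were Itga9 and Itgb2l. Itgb2l, a beta 2-like gene of neutrophils, was called for H3K27me3 at both ends, with folds of 2.62 and 2.28 in a peak 13694 and 14502 bp wide. Ezh2 peaks covered 31.0% and 19.9% of its span and H3K27me3 peaks 85.8% and 71.5%, while 1 Runx1 region lay inside. The gene Igsf5 overlaps this span. Itga9 is described with the gene spans.

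The subunit that most other integrins need, Itgb1 (chromosome 8, 128685654 to 128733579), had Runx1 alone, with folds of 5.23 and 4.55 (4.89 ± 0.477) at its start. No Ezh2 or H3K27me3 peak of either list touched its span. Of the 4 laminin-binding subunits, Itga6 (chromosome 2, 71786886 to 71858427), a surface marker of stem cells, had the strongest Runx1 peak of any member, with folds of 68.5 and 60.0 (64.2 ± 6.04). It ranked 324 among 9910 genes with Runx1 at an end, and no Ezh2 or H3K27me3 peak of either list touched its span.

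The other laminin-binding subunits were marked. Itga3 (chromosome 11, 95044475 to 95076844), a subunit of epithelia, had Ezh2 folds of 11.6 and 8.22 (9.90 ± 2.38) and H3K27me3 folds of 2.80 and 2.43, with calls at both ends. Ezh2 peaks covered 45.8% and 35.8% of its span and H3K27me3 peaks 87.2% and 78.4%, and no Runx1 peak of either list touched it. Itga7, the muscle subunit, had Ezh2 folds of 2.85 and 3.55 with the mark at 2.66 and 2.44. Itgb4, the hemidesmosome subunit, had the lowest H3K27me3 fold of the 40 marked members, 2.04 and 1.59. It held 2 Runx1 regions inside, the strongest with folds of 21.7 and 21.6, although the gene Galk1 overlaps it.

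Subunits that read the RGD letters of fibronectin and vitronectin were split. Itgb5 (chromosome 16, 33829665 to 33949338) carried all 3 antibodies, with Ezh2 folds of 11.7 and 8.75 (10.2 ± 2.07), H3K27me3 folds of 2.94 and 2.31 and low Runx1 folds of 2.17 and 2.48 at its ends. Itga8, a kidney and mesenchyme subunit, had the highest H3K27me3 fold of any member, 3.78 and 2.85 (3.31 ± 0.660), with Ezh2 at 3.15 and 3.16. Itgav, the alpha subunit common to this group, had Runx1 alone at 2.99 and 6.35, a spread that leaves its height poorly fixed. Itga5, the fibronectin receptor subunit, had weak Ezh2 (2.29 and 1.93) and weak Runx1 (2.12 and 3.01) and no mark. Itgb8 had Ezh2 and the mark at folds between 2.28 and 2.75. At its ends Itgb6 had the mark alone, at the far end with folds of 2.31 and 2.14, in peaks that did not overlap each other. Over its span Itgb6 held 15 Ezh2 regions, a number that 2.61% of all genes reached. It also held 6 Runx1 regions, the strongest with folds of 11.0 and 13.9.

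Among the collagen-binding alpha subunits, Itga1 and Itga2, neighbours on chromosome 13, had the same pattern of Ezh2 with Runx1 and no mark. The folds at their starts were low, with Ezh2 at 2.53 and 2.54 and Runx1 at 2.94 and 2.96 for Itga1, and Ezh2 at 2.66 and 3.65 and Runx1 at 2.01 and 2.27 for Itga2. The highest Ezh2 peaks of Itga1 and the Runx1 peaks of Itga2 did not overlap between replicates, so these values come from separate peaks. Stronger Runx1 peaks lay inside, up to 8.25 and 15.1 in Itga1, which the gene Pelo overlaps, and 9.54 and 14.1 in Itga2. Itga11 had H3K27me3 over most of its span (70.2% and 50.1%), 15 Ezh2 regions inside and Runx1 folds of 10.6 and 13.7 beyond its far end. Itga10 was called for Ezh2 alone, at 2.54 and 1.95, but from peaks that did not overlap, and no Ezh2 region of both replicates lay over it.

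The plot of folds by member also holds the Adam genes. Of the 9 somatic sheddases, 5 had Runx1 at an end and 4 had the mark, beside 45.3% and 30.6% of all genes. Of the 22 testis and epididymis genes, 1 had Runx1 and 9 had the mark. Adam10 (chromosome 9, 70678944 to 70780229), the sheddase that opens Notch receptors, had Runx1 folds of 31.5 and 26.9 (29.2 ± 3.24) at its start. Adam9 (chromosome 8, 24949611 to 25017040) had 29.7 and 24.4 (27 ± 3.72), in a peak shared with its neighbour Tm2d2. Adam17 (chromosome 12, 21323509 to 21373632), which releases tumour necrosis factor, had 14.4 and 12.6 (13.5 ± 1.24).

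Adam15 had 8.79 and 8.03 in a peak that Dcst1 and Dcst2 share. No Ezh2 or H3K27me3 peak of either list touched the span of any of these 4. Adam10 and Adam9 overlap in their replicates, and both lie above Adam17 in each replicate. Adam8, a leukocyte sheddase, had no call at its ends, but its RefSeq promoter starts inside the annotated span and lies under a weak Runx1 region with folds of 2.95 and 2.42.

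The other somatic sheddases were marked. Adam19 had H3K27me3 folds of 2.53 and 2.02 at its start, 16 Ezh2 regions inside and H3K27me3 over 72.7% and 34.4% of its span. Adam33, an airway muscle gene, had Ezh2 at 2.76 and 1.97, in highest peaks that did not overlap, with the mark at 2.83 and 2.36. Adam12, a muscle and placenta gene, had the mark at 2.40 and 2.17 and 48 H3K27me3 regions over its 342 kb. Adam28, a lymphocyte gene, had the mark at 2.44 and 2.66 together with Runx1 at 3.92 and 2.18.

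The 3 brain genes without protease activity, Adam11, Adam22 and Adam23, had the mark alone at an end, with folds between 1.78 and 2.45, and none had Ezh2 or Runx1 there. Adam22 and Adam11, which take part in synapse organisation and brain excitability, and Adam23 each held Ezh2 regions inside, numbering 2, 1 and 6.

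The 22 testis and epididymis Adam genes held the members without any call or region of both replicates, although unshared peaks lay over some, such as Adam24 and Adam39. In 11 of the 22 genes no antibody was called at an end and no region of both replicates lay over the span. By each measure alone this held for 12 of the 22, beside 28.7% of all genes at ends and 20.7% over the span. The share of all genes by both measures together was not counted. The 22 genes are short, with a median span of 8.35 kb. Among all genes under 10 kb only 13.2%, 28.5% and 34.3% had an Ezh2, H3K27me3 or Runx1 region over the span. The 11 included the 4 genes from Adam24 to Adam39 on chromosome 8 (40675077 to 40826861), the 4 from Adam26b to Adam34 (43519864 to 43703424), Adam29, Adam4 and Adam21. No other member lacked all 3 antibodies by both measures. Another group on the same chromosome was different. From 24602246 to 25017040 Adam18, Adam3, Adam5 and Adam32, which make sperm surface proteins, each had H3K27me3, and the widely expressed Adam9 beside them had Runx1.

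Within that group, Adam5 had the highest mark of the family, with folds of 3.15 and 3.25 (3.20 ± 0.0699). Adam18 had 2.67 and 2.14, Adam3 had 2.14 and 1.82 and Adam32 had 2.2 and 1.94. Adam5 thus stood above the 3 others in both replicates. Fertilin beta, encoded by Adam2 on chromosome 14, had H3K27me3 at 2.66 and 2.37 and over 49.7% and 33.8% of its span. The only testis gene called for Runx1 at an end was Adam1b, with folds of 9.11 and 10.1. The summits lay 1594 and 1592 bp inside the gene, which Tmem116 overlaps. Its neighbour Adam1a held 1 Runx1 region of both replicates inside, with folds of 7.31 and 7.18. Adam32 held 2, the strongest with 2.69 and 4.72.

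Promoter composition differed between the families. A CpG ratio, the number of CG pairs over that expected from the C and G content, had a median of 0.156 over 20 Adam promoters, 0.476 over 22 integrin promoters and 0.722 over 10 Adamts promoters, beside 0.567 over all promoters. Promoters under a Runx1 peak of both replicates reached 0.6 in 83.0% of cases over all genes and in 8 of 13 members, while those without did so in 23.8% of all and 10 of 39 members. The following 4 promoters show the range, with each CG pair in capitals. Itgb1 (chr8:128685404-128685703, plus strand) had Runx1 alone, Itgb5 (chr16:33829415-33829714, plus strand) and Adamts9 (chr6:92943485-92943784, minus strand) had all 3 antibodies, and Adam34 (chr8:43665511-43665810, minus strand) had none.
Itgb1: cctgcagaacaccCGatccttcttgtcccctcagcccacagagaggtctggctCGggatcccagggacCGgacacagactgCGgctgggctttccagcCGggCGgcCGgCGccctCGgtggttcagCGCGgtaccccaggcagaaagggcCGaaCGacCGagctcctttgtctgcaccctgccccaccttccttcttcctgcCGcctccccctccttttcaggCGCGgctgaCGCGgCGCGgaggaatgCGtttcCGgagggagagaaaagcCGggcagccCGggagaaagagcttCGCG
Itgb5: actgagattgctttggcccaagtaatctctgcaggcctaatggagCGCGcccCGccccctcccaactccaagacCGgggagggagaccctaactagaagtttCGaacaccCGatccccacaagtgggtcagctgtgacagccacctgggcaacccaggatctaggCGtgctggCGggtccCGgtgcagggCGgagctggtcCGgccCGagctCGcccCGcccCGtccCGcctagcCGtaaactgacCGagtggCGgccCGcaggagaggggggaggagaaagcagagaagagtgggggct
Adamts9: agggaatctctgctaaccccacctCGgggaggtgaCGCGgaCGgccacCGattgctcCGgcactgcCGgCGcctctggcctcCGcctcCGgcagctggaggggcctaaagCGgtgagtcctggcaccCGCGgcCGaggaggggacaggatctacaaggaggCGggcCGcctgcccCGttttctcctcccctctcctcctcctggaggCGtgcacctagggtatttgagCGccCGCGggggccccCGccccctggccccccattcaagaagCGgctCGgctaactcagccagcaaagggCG
Adam34: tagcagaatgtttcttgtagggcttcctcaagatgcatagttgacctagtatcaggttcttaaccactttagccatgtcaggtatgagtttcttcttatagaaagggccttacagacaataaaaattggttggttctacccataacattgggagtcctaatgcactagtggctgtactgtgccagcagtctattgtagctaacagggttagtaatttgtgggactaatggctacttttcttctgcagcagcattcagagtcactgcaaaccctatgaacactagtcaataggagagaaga
The 300 bases held 27 CG pairs at Itgb1, 20 at Itgb5, 25 at Adamts9 and 0 at Adam34.

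Adamts genes carried the strongest Ezh2 peaks of the metalloproteinases. Adamts9 (chromosome 6, 92772699 to 92944450), a proteoglycan-cleaving enzyme, had Ezh2 folds of 12.5 and 8.24 (10.4 ± 3.00, SD, n = 2), the highest of all 80 members, with H3K27me3 at 3.35 and 2.61 and weak Runx1 at 2.27 and 2.59. It ranked 157 among 4034 genes with Ezh2 at an end. Its value overlaps those of Itgb5 and Itga3, so these 3 members share the top.

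Next came 3 further Adamts genes. Adamts17 (chromosome 7, 66839699 to 67153171) had Ezh2 at 8.99 and 6.73 (7.86 ± 1.60), Adamts6 at 7.70 and 4.85 (6.28 ± 2.02) and Adamts16 at 5.61 and 6.00 (5.81 ± 0.273). All 3 had the mark, with H3K27me3 folds between 2.36 and 3.15, and none had Runx1 at an end. The replicates of Adamts6 overlap those of both others, while Adamts17 lay above Adamts16 in both replicates. All 3 lay above the 5 Adamts genes with weaker Ezh2. The highest of those was Adamts4, an aggrecanase, with 3.69 and 4.02, which had Runx1 at 5.91 and 7.90 and no mark. Adamts15, Adamts13, Adamts7 and Adamts14 had Ezh2 folds between 2.01 and 3.54.

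The mark without Ezh2 was called at 5 Adamts genes, namely Adamts2, Adamts5, Adamts8, Adamts12 and Adamts18, with H3K27me3 folds between 1.75 and 2.51. The highest peaks of Adamts5 did not overlap between replicates. Adamts2, the main procollagen N-proteinase, had H3K27me3 over 75.3% and 44.3% of its span and Adamts8 over 86.1% and 62.0%. Ezh2 regions lay inside 4 of these 5, with 9 in Adamts2, 10 in Adamts12, 5 in Adamts8, 2 in Adamts18 and 0 in Adamts5. No antibody was called at the ends of Adamts1, Adamts3, Adamts19 or Adamts20.

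Runx1 was called at 5 Adamts genes. Adamts13 (chromosome 2, 26973361 to 27009625), which cleaves von Willebrand factor, had folds of 36.4 and 32.6 (34.5 ± 2.71), but the summits lay 272 and 242 bp beyond its far end, and the same peaks called its neighbour Cacfd1. At its start Adamts13 had the mark at 2.49 and 2.08. Its Ezh2 call there, at 2.46 and 2.84, rests on peaks of the replicates that did not overlap, and its 3 Ezh2 regions of both replicates lay more than 1 kb from the ends. Adamts10 had Runx1 alone, at 5.47 and 3.15, and Adamts7 had all 3 antibodies, with folds between 1.96 and 3.61.

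**Figure D2:**
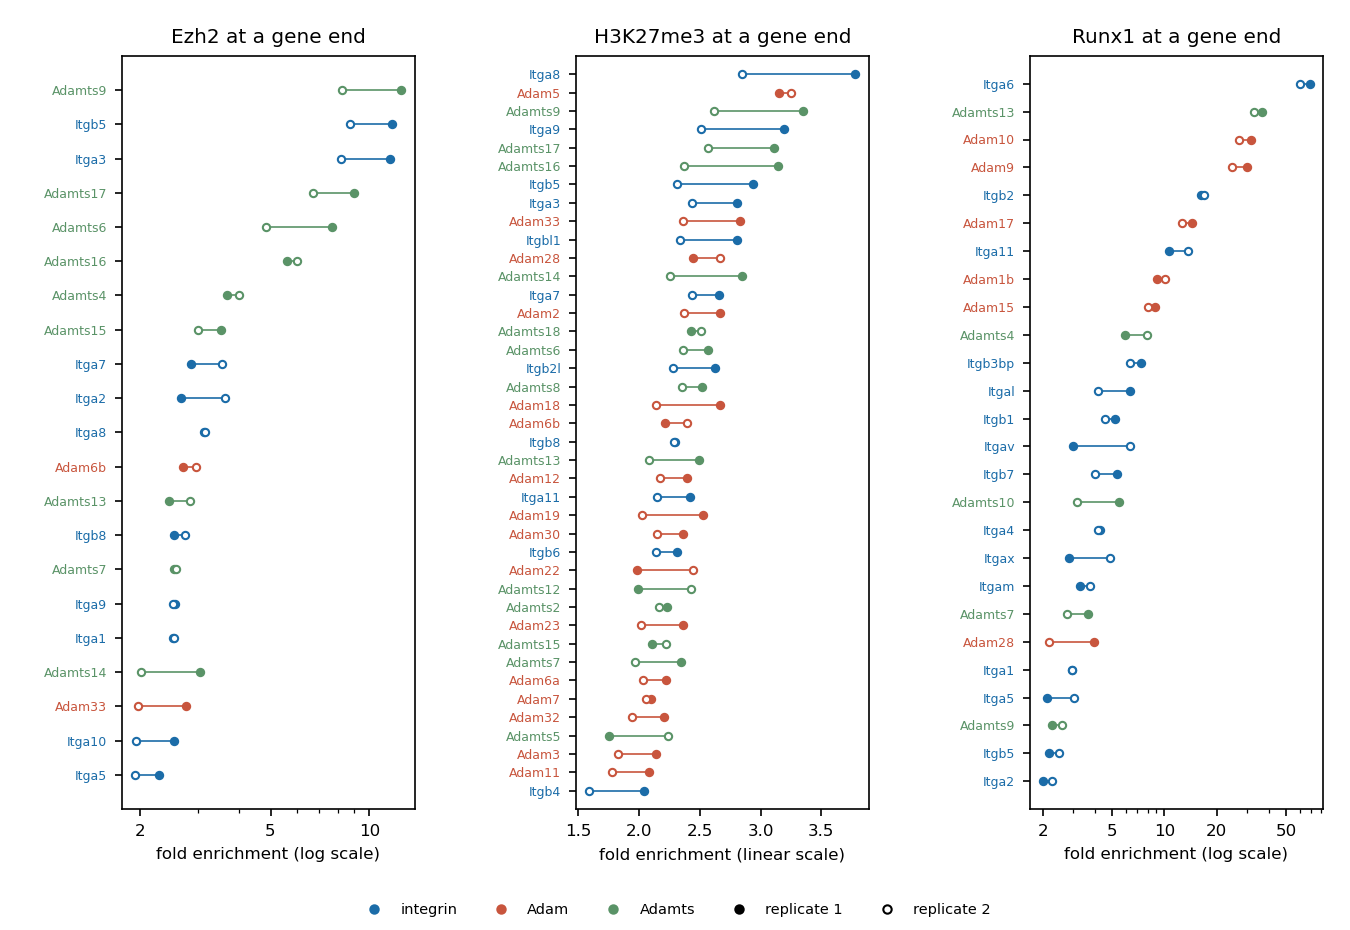
Fold enrichment at a gene end for each member called, with filled circles for replicate 1 and open circles for replicate 2, coloured by family and ordered by the mean. Ezh2 and Runx1 are on log axes and H3K27me3 on a linear axis. The Ezh2 panel is topped by Adamts9, Itgb5 and Itga3, and the Runx1 panel by Itga6 at 68.5 and 60.0.

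Over all called members the median of the mean folds was 3.15 for Ezh2, 2.30 for H3K27me3 and 4.78 for Runx1. Among all called genes it was 2.96, 2.29 and 7.50. The median for Runx1 was 4.67 in integrin genes, 11.5 in the 6 called Adam genes and 4.31 in the 5 called Adamts genes. Runx1 peaks at 5 of 26 members were shared with a neighbouring gene, namely Itgb7, Itgb3bp, Adam9, Adam15 and Adamts13, and for H3K27me3 this held for 1 of 40, Adam12 with Fank1. For Ezh2 it held for none of 21.

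Weak peaks made up much of the marked group. When each replicate had to reach a q of 0.01 or lower, H3K27me3 was called at 4 members, Itga8, Adamts9, Adamts17 and Adam5, beside 3.02% of all genes. Ezh2 was called at 11, 6 of them integrin and 5 Adamts genes, beside 8.08%. Runx1 was called at 22, beside 42.3%. At 1e-05 or lower Ezh2 remained at 7 members, namely Itga3, Itga8, Itgb5, Adamts6, Adamts9, Adamts16 and Adamts17, Runx1 at 17 and H3K27me3 at 0, beside 4.58%, 39.0% and 0.425% of all genes. So the Ezh2 calls of the 2 Adam genes, and the mark at all brain and all but 1 of the testis Adam genes, rest on peaks with a q above 0.01 in at least 1 replicate. Some lay far above it. In replicate 2 the q-value of the mark as -log10 was only 0.095 at Adam3, 0.091 at Adam32 and 0.0034 at Itgb4, while Adam5 reached 2.40.

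Over the whole gene span, where a region counted when peaks of both replicates merged into it, Ezh2 was found at 13 integrin, 13 Adam and 12 Adamts genes, beside 24.6% of all genes. H3K27me3 was found at 12, 14 and 17, beside 36.8%, and Runx1 at 21, 11 and 8, beside 56.5%. Span calls depend on length, and the median span was 56.9 kb for integrin, 17.6 kb for Adam and 114 kb for Adamts genes, against 17.2 kb for all genes. Among genes of 100 kb or more, H3K27me3 was found over 10 of 10 Adamts, 4 of 5 Adam and 6 of 7 integrin genes, beside 65.6% of all genes of that length. Runx1 was found over 3 of 10, 4 of 5 and 5 of 7 of them, beside 73.6%. Ezh2 was found over 7 of 10, 4 of 5 and 6 of 7, beside 52%. So each long Adamts gene held at least 1 H3K27me3 region, and a minority held Runx1. The mark was sparse in Adamts19, Adamts3 and Adamts17, with 0.919, 0.953 and 0.957 regions per 100 kb, beside 4.72 for all genes. It was dense in others, with 16.5 in Adamts12 and 16.1 in Adamts2.

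In the 10 to 50 kb class Runx1 was found over 9 of 12 integrin, 2 of 8 Adam and 4 of 7 Adamts genes, beside 66% of all genes of that length. Ezh2 was found over 5, 4 and 4 of them, beside 24.2%, and H3K27me3 over 5, 4 and 5, beside 34.8%. In the 50 to 100 kb class, with 8 integrin, 8 Adam and 1 Adamts gene, Runx1 was found over 7, 3 and 1, beside 75.2%. The integrin genes thus had Runx1 in larger numbers than the Adam genes in both classes. In the same class Ezh2 was found over 2, 4 and 1, beside 34.9%, and H3K27me3 over 1, 5 and 1, beside 42.8%. Of the 14 members under 10 kb 13 were Adam genes, and Ezh2, H3K27me3 and Runx1 were found over 1, 2 and 2 of the 14, beside 13.2%, 28.5% and 34.3%. No antibody was found over 13 members, 12 of them Adam genes and 1 an integrin gene, beside 20.7% of all genes.

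Counted per length, Runx1 regions were densest in the integrin genes. Integrin genes held 89 Runx1 regions, or 3.99 per 100 kb of span, Adam genes 18, or 0.989, and Adamts genes 19, or 0.815, where all genes together had 2.84. Without Itga9 and Itgb5 the 25 other integrin genes had 3.03. H3K27me3 peaks covered 19.4% and 12.3% of the summed integrin spans in replicates 1 and 2, 22.0% and 11.3% of the Adam spans and 25.9% and 13.9% of the Adamts spans, where all gene spans had 15% and 9.08%. Replicate 1 covered more than replicate 2 in every family, so the levels depend on the list while each family lay above all genes in both. Ezh2 peaks covered 3.70% and 2.92%, 2.80% and 2.60%, and 3.39% and 2.62%, where all gene spans had 2.87% and 2.44%, so only replicate 1 of the Adam genes lay below.

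**Figure D3:**
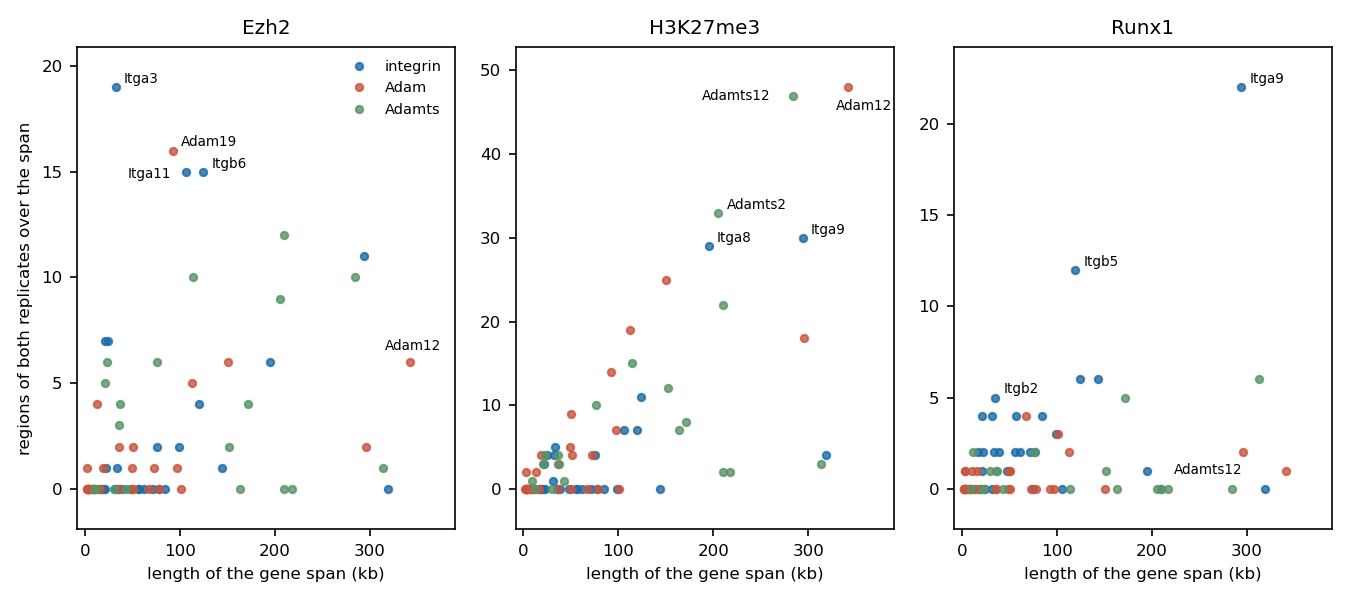
Number of regions of both replicates over the span of each of the 80 members against its length in kb, by antibody and coloured by family. H3K27me3 regions reach 48 in Adam12 and 47 in Adamts12, both long genes, while in the Runx1 panel Itga9 with 22 and Itgb5 with 12 stand apart from all others, which have 6 or fewer.

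Itga9 (chromosome 9, 118606709 to 118901003), a receptor subunit for tenascin and VCAM-1, was the member with the most Runx1. It held 22 Runx1 regions of both replicates, a number that 26 of 21887 genes reached. None of the 22 lay within 1 kb of an end. The strongest had folds of 20.1 and 23.5 and lay 43.0 kb from the start. The same gene held 30 H3K27me3 regions and 11 Ezh2 regions, and its start had H3K27me3 at 3.19 and 2.51 and Ezh2 at 2.55 and 2.52. That start is the edge of the annotated span. The RefSeq promoter of Itga9, at 118711442 to 118711741, lies inside the span and had no peak of both replicates for any antibody.

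In Itga9 the longest stretch free of H3K27me3 regions ran from 7.00 to 79.0 kb, 24.5% of the span. It held 14 of the 22 Runx1 regions and 0 of the 11 Ezh2 regions. Of the 22 Runx1 regions 3, or 13.6%, touched an H3K27me3 region, beside 6.54% of all Runx1 regions, and 0 touched an Ezh2 region, beside 4.17%. In Itgb5 the longest such stretch ran from 70.8 kb to the far end, 40.9% of the span, and held 7 of 12 Runx1 regions and 0 of 4 Ezh2 regions. Both stretches were chosen from these same lists for lacking the mark. Since 88.6% of all genes with Ezh2 at an end also had the mark, the lack of Ezh2 there is no separate result. The strongest Runx1 region of Itgb5 had folds of 34.0 and 35.7 at 92.6 kb, and 1 of the 12 regions touched the mark.

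Over all members together 11 of 126 Runx1 regions touched H3K27me3, or 8.73%, and 7 touched Ezh2, or 5.56%. Among all 44027 Runx1 regions these shares were 6.54% and 4.17%. The 11 lay in Itga9, Itgb6, Adamts9, Itgb5, Adamts14, Adam28 and Adamts7. Itga3 and Adamts12 show the other end of the range. Itga3 held 19 Ezh2 regions, a number that 1.89% of all genes reached, in 32.4 kb, and Adamts12, a cartilage protease gene, held 47 H3K27me3 and 10 Ezh2 regions in 284 kb, and neither had a Runx1 region.

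**Figure D4:**
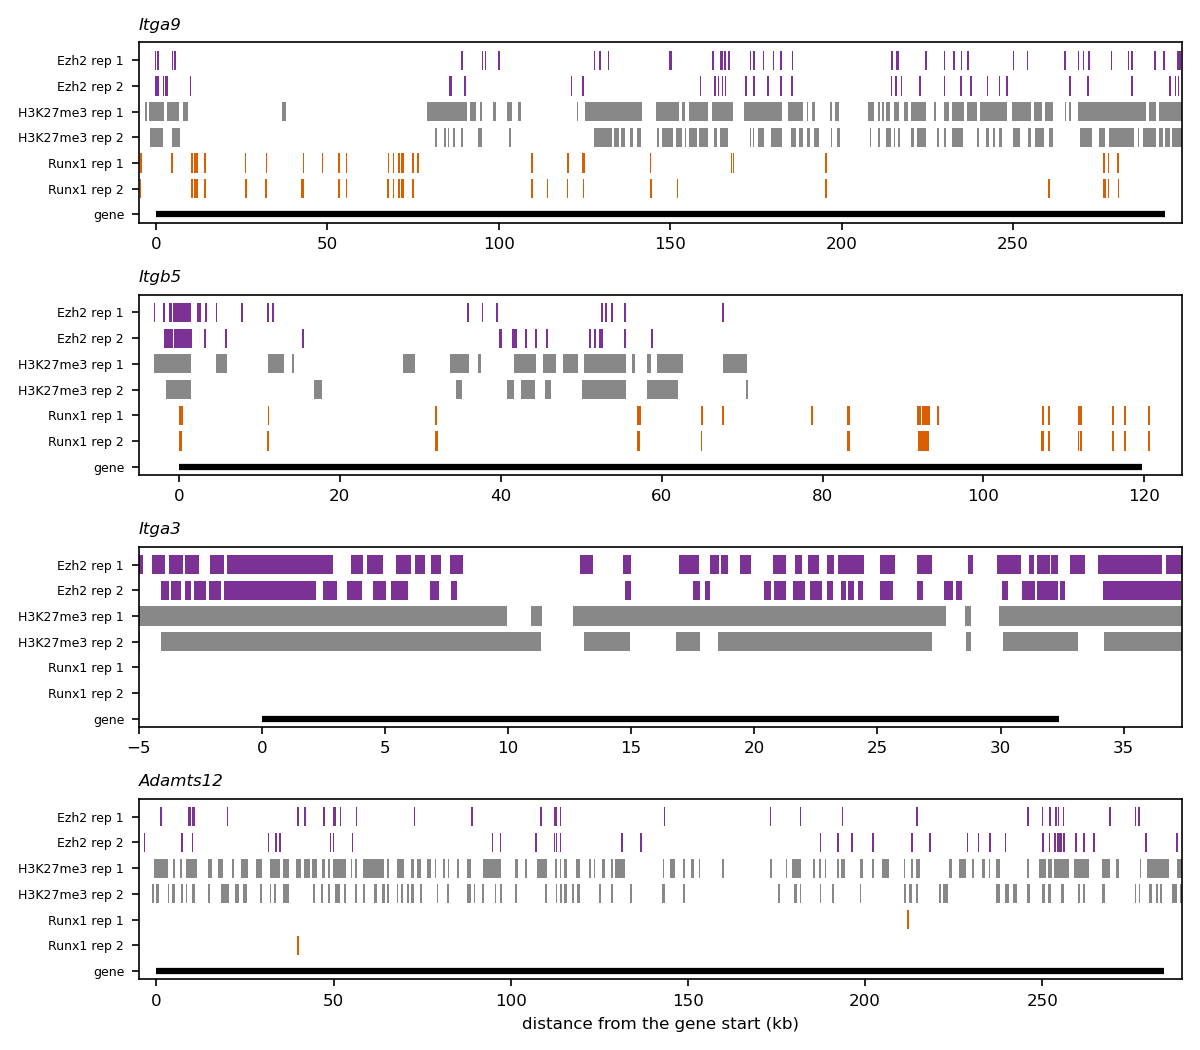
Peaks of each replicate list along Itga9, Itgb5, Itga3 and Adamts12, drawn to scale against the distance from the gene start in kb, with the gene as a black bar. In Itga9 the cluster of Runx1 peaks before 79.0 kb lies where the mark has no region of both replicates, and in Itga3 Ezh2 and the mark run through the gene while Runx1 has no peak.

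A list of 59 partner genes put the members in context. With a q of at most 0.01, Ezh2, H3K27me3 and Runx1 were called at an end of 14, 4 and 27 of them, beside 8.08%, 3.02% and 42.3% of all genes. The calls below include weaker peaks. Of 25 genes of integrin activation and adhesion, 15 had Runx1 at an end, 6 had Ezh2 and 8 had H3K27me3, beside 45.3%, 18.4% and 30.6% of all genes. The highest Runx1 folds were at Lims1 (83.0 ± 9.93), an adaptor of the ILK complex, Itgb1bp1 (25 ± 2.00), a regulator of Itgb1, and Vcl (24.8 ± 5.19), which encodes vinculin. Related forms had unlike calls. Fermt3, the kindlin of blood cells, had Runx1 alone (7.44 ± 0.707), whereas Fermt1 and Fermt2, the kindlins of epithelium and other tissues, had Ezh2 and the mark. Tln1, the main talin of blood cells, had Runx1 alone (11.0 ± 0.965), and Tln2 had Ezh2 and the mark. Of the parvins, Parvg, the form of blood cells, had no call, Parvb had Runx1 alone (2.41 ± 0.546) and Parva the mark alone. With a q of at most 0.01 the Runx1 calls of Fermt3 and Tln1 remained. The Ezh2 and mark calls of Fermt1, Fermt2 and Tln2, the Runx1 call of Parvb and the mark at Parva did not. Apbb1ip, a Rap1 effector of blood cells, had no call. Rasgrp2, an activator of Rap1 in platelets, had the strongest Ezh2 of this list (8.21 ± 0.931), with the mark and with Runx1 at 6.00 ± 0.616. The platelet pair Itga2b and Itgb3, left out of the members by the rule, had Runx1 alone at 18.4 ± 1.11 and 3.17 ± 0.656.

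Of 14 ligand genes, 7 had Runx1, 5 had Ezh2 and 9 had the mark, beside the same 45.3%, 18.4% and 30.6%. The matrix genes Fn1, Tnc, Vtn and Col1a1 had Ezh2 and the mark without Runx1, and Icam2, a ligand of LFA-1, had Runx1 alone (15.1 ± 1.59). Lama5 had the highest Ezh2 of the ligands (12.0 ± 2.96), and Lamc1 the highest Runx1 (56.0 ± 5.83). Of 20 inhibitors, cofactors and relatives of the metalloproteinases, 10 had Ezh2, 12 the mark and 7 Runx1, beside 18.4%, 30.6% and 45.3%. The inhibitor genes Timp2, Timp3 and Timp4 and the cofactor gene Rhbdf1 had Ezh2 and the mark without Runx1, and Reck had all 3 antibodies. Their relatives went other ways. Timp1 had no call, and Rhbdf2 had none at an end but 4 Runx1 regions over its span. Among the tetraspanin partners of Adam10, Tspan14 had Runx1 alone at 109 ± 8.27, Tspan17 had Runx1 at 103 ± 14.2 with Ezh2 and the mark, and Tspan33 had Ezh2 at 11.4 ± 2.57 with the mark and Runx1. Tspan5 had weak Runx1 alone (2.57 ± 0.454), Tspan15 had Ezh2 and the mark without Runx1, and Tspan10 had no call.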

How the data were processed

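Immunoprecipitated chromatin of EML_C1 cells was sequenced. Per the submitters' processing notes, mm10 was the genome and the tools included MACS2 2.0.10, SAMtools, Picard and Bowtie2 2.2.1, with no roles or parameters given. The deposited lists, 1 per library, give each peak's fold enrichment as a linear ratio, its p- and q-value as -log10 values and a whole-number score, which was not used. The weakest p-values of the lists lie between 0.0493 and 0.0499, so weak peaks are included. The input libraries were not analysed here.

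Genes came from a RefSeq table on GRCm38.p6, which shares chromosome coordinates with mm10. Promoter sequences and gene directions, available for 48 members, came from RefSeq promoters on the same build. The table gives no exons, so exons, introns and UTRs were not told apart. For a gene with several peaks in a shared window the highest of each list was taken. Regions were merged peaks to which both lists contributed, with an overlap of at least 1 bp. An ± is the SD over 2 replicates. Of 140 listed symbols, 59 of them partners, 139 matched the table. The members and lists were chosen with earlier results of these data known. Named genes were, for each family and antibody, up to 5 with the highest fold at an end and up to 3 with the most regions over the span, those with all 3 antibodies, the leukocyte integrins and up to 3 partners per antibody. Other members, partners and the printed promoters were chosen after their values were seen. No test was run: with 2 replicates per antibody and no control list there is no contrast between samples. The calling was tested on simulated peaks. Python 3.11.15, pandas and matplotlib were used.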

Additional observations from a re-analysis of the deposited data

How the results depend on the processing

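The deposited lists hold many weak peaks, and their strength decided most counts. With a q of at most 0.01 the members at gene ends numbered 11 for Ezh2 and 4 for H3K27me3, in integrin genes 6 and 1, in Adam genes 0 and 1 and in Adamts genes 5 and 2, and over the span 23 and 6. At 1e-05 Ezh2, H3K27me3 and Runx1 were at the ends of 7, 0 and 17 members, 3, 0 and 9 integrin and 4, 0 and 3 Adamts genes. There Adam genes had Ezh2 and H3K27me3 at 0, and over the span Ezh2 was at 9 and H3K27me3 at 1. When each list was limited to its 10000 strongest peaks, the ends of 7, 4 and 7 members were called, of 2, 1 and 3 integrin, 0, 1 and 3 Adam and 5, 2 and 1 Adamts genes, and the spans of 8, 11 and 15. Integrin and Adam genes then had the same number with Runx1. A 2 kb window gave Ezh2 at 7 Adam genes. Starts alone, which 48 members have, gave 12, 17 and 16 members, 1 and 3 Adam genes for Ezh2 and H3K27me3, and 3, 6 and 1 Adamts genes.

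Without replicate 1 or replicate 2 the members with Ezh2 at gene ends numbered from 28 to 36 and the Adam genes with Ezh2 from 6 to 11. The other counts at ends, over the span, with 500 bp windows, with 100 bp of overlap and without Itgb3bp and Itgbl1 stayed within 1.5 times. So did they when the replicates' peaks had to overlap, a setting added after seeing the data. Of 53 named folds 20 were no longer called at a q of at most 0.01 and 4 with 500 bp windows, where 3 others moved beyond their SD: Runx1 at Itgb2 to 3.44 and at Itgb5 to 2.07, and Ezh2 at Adamts7 to 2.23. No paired analysis was possible because each antibody has only peak lists, with no second condition within an antibody to pair by replicate number.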
